A study of Homo sapiens with 4 samples.

Results

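The genes described are 10 antioxidant genes of the 18417 measured: the superoxide dismutases SOD1, SOD2 and SOD3, catalase (CAT), the glutathione peroxidases GPX1, GPX2, GPX3 and GPX4, the peroxiredoxin PRDX1 and selenoprotein P (SELENOP). The list was chosen because SOD2 and SELENOP shifted in siKLF7 cells against scramble control replicate 2, so it was selected on measured values of that contrast, and its values there are given as a description with no test. Superoxide dismutases turn superoxide, a by-product of respiration and of NADPH oxidases, into hydrogen peroxide, and catalase, glutathione peroxidases and peroxiredoxins then reduce the peroxide. SELENOP is a secreted protein that carries selenium to tissues, which use it to make selenoenzymes such as the glutathione peroxidases GPX1 to GPX4. In the corneal epithelium, which faces light and air, these enzymes limit oxidative damage.

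The study lowered KLF7, a zinc finger transcription factor of the Krüppel-like family, in work on the corneal epithelium. The cells were HCE, a cell line labelled as undifferentiated. Both siKLF7 samples received siRNA to KLF7 at 20 nM and both scramble control samples a control pool at the same dose, with 100000 cells seeded in each well and collection after 48 hours. Separate cultures are not stated within a group, so the spread of these 4 samples within their groups may be technical. Each limma p-value rests on that spread and on a prior spread taken from all genes. Where a control array is left out, the p-value holds no spread between controls, only that of the siKLF7 pair and the prior.

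Scramble control replicate 1 stood apart, and differences are therefore given with it (4 arrays) and without it (3 arrays). Across genes it correlated with the other arrays at r = 0.934 to 0.938, while the other 3 correlated with each other at 0.990 to 0.994. KLF7 had signals of 1492 and 1122 on the siKLF7 arrays, against 4649 and 2911 on the scramble control arrays. With 4 arrays its log2 difference was -1.50 (SE 0.28) at a limma adjusted p of 0.639. With 3 arrays, leaving out scramble control replicate 1, KLF7 fell by 1.16 (SE 0.13) at an adjusted p of 1.2e-09. The 11 corneal epithelial markers measured summed to signals of 43993 and 46571 on the siKLF7 arrays, and to 26448 and 39026 on scramble control replicates 1 and 2. KRT12 and KRT3, keratins that define the corneal epithelium, had signals of 1570 and 1440 on scramble control replicate 2, but KRT12 was at 67.7 and KRT3 was listed at 0 on scramble control replicate 1.

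Over the arrays, SOD2 had one level on both siKLF7 arrays and scramble control replicate 1, and was higher on scramble control replicate 2 alone. GPX2, GPX3 and SELENOP differed most between the control arrays themselves, by 2.02 to 3.60 in log2 units. For SOD1, SOD3, CAT, GPX1, GPX4 and PRDX1, as for SOD2, the highest and the lowest of a gene's own 4 signals lay less than 2-fold apart. Levels are log2(signal + 16), and differences are siKLF7 minus scramble control on that scale, which understates changes of dim genes. Both siKLF7 arrays lay above both control arrays for CAT and PRDX1 and below both for 0 of the 10 genes, where among all genes 16.3% lay above and 28.9% below.

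**Figure D1:**
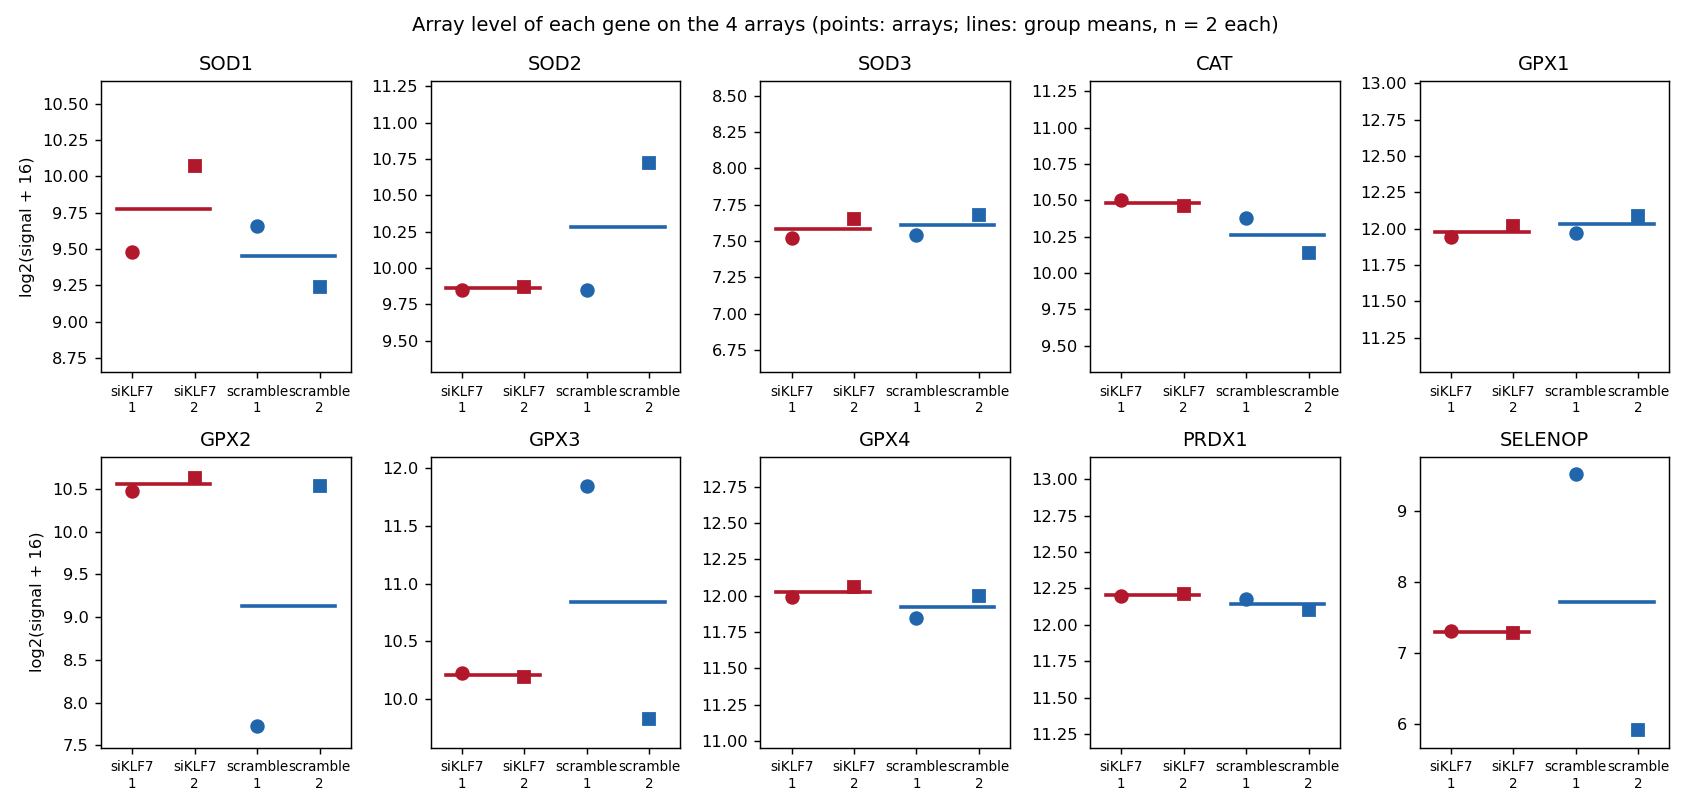
Level of each of the 10 genes as log2(signal + 16), with 1 point per array, siKLF7 in red and scramble control in blue, and lines at the group means (n = 2 each). Vertical axes differ in position, and span 2 log2 units unless the gene ranged further. SOD2 is high on scramble control replicate 2 alone at 10.72, and GPX2, GPX3 and SELENOP split the control pair.

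SOD2, the manganese superoxide dismutase of the mitochondrial matrix and a known target of NF-kB in inflamed cells, was 1.81-fold lower in siKLF7 cells than on scramble control replicate 2. Its signal was 910.0 and 920.8 on siKLF7 replicates 1 and 2, against 910.1 and 1673 on scramble control replicates 1 and 2. The 2 siKLF7 arrays and scramble control replicate 1 thus lay close together, and the groups overlapped. Against scramble control replicate 2 the siKLF7 arrays stood at -0.87 and -0.85, and against scramble control replicate 1 at 0.00 and 0.02. The mean difference was -0.86 with 3 arrays and -0.43 (SE 0.31) with 4 arrays. The control pair had an SD of 0.61 (log2, n = 2) and the siKLF7 pair an SD of 0.01 (n = 2).

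SELENOP was 2.61-fold higher in siKLF7 cells than on scramble control replicate 2, and lower than on scramble control replicate 1. Its signal was 143.3 and 140.7 on the siKLF7 arrays, against 715.9 and 44.5 on scramble control replicates 1 and 2. Both siKLF7 arrays lay between the 2 controls, which differed from each other by 3.60 (log2). Against scramble control replicate 2 the siKLF7 arrays stood at 1.40 and 1.37, and against scramble control replicate 1 at -2.20 and -2.22. The mean difference was 1.39 with 3 arrays and changed sign with 4 arrays, at -0.41 (SE 1.19). The gene was dim on scramble control replicate 2, below the 25th percentile signal of that array, 64.8, and its 3-array difference ran from 1.19 with a pseudocount of 32 to 1.65 with a pseudocount of 1.

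The windows before the starts of these 2 genes are shown because SOD2 and SELENOP led to the choice of the list. The RefSeq table of promoters (GRCh38.p14) held 8 of the 10 genes, with SOD1 and PRDX1 unmatched, in 13 windows, and for each window the 250 bases before the start were searched on both strands. The first letters searched were CACCC, the core of boxes that Krüppel-like factors can bind, found in 54.7% of all 35116 windows of the table. The next were GGGCGG, the core of a GC box, found in 42.6% of all windows. The last were TATAAA, the core of a TATA box, found in 10.7% of all windows. Capitals mark these matches.
SOD2, the most downstream of its 4 listed starts, chr6:159693242-159693491, minus strand: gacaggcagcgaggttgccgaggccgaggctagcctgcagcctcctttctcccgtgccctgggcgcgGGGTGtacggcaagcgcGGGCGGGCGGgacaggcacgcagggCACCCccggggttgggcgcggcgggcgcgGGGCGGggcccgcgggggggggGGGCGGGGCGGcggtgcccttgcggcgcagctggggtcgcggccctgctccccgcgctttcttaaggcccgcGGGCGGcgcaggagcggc
SELENOP, its 1 listed start, chr5:42811893-42812142, minus strand: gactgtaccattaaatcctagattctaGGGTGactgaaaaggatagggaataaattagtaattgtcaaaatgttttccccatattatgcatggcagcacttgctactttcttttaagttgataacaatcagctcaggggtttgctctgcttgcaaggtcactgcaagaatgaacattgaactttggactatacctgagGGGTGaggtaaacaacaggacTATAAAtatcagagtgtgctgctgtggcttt
The SOD2 window was 80.8% G or C and held CACCC at 2 places, GGGCGG at 6, some of them overlapping each other, and TATAAA at 0. The SELENOP window was 39.6% G or C and held CACCC at 2 places, GGGCGG at 0 and TATAAA at 1. The other 3 SOD2 windows, from downstream to upstream, held 0, 0 and 1 CACCC matches and 1, 4 and 1 GGGCGG matches. Over the 13 windows, 6 held CACCC and 11 held GGGCGG, and TATAAA was found in 1, that of SELENOP. A match of letters does not show binding, and the arrays measured none.

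The other 2 superoxide dismutases gave no clear difference. SOD1, the copper and zinc enzyme of the cytosol, had signals of 700.2 and 1059 on the siKLF7 arrays, against 795.4 and 588.9 on the scramble control arrays. The 2 siKLF7 arrays differed from each other by 0.59 (log2), the widest gap of that pair among the 10 genes, and the groups overlapped. The SOD1 difference was 0.32 (SE 0.27, limma adjusted p = 0.66) with 4 arrays and 0.54 with 3 arrays. SOD3, the secreted enzyme bound to the extracellular matrix, had signals of 166.9 and 185.1 on the siKLF7 arrays, against 170.4 and 189.4 on the scramble control arrays. Its difference was -0.03 (SE 0.13, adjusted p = 0.931) with 4 arrays and -0.10 with 3 arrays, and all 4 values were close to the median signal of the arrays or below it.

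Catalase, the heme enzyme of peroxisomes, was above both controls on both siKLF7 arrays by a small margin. CAT had signals of 1436 and 1393 on the siKLF7 arrays, against 1312 and 1114 on the scramble control arrays. The difference was 0.22 (SE 0.15, limma adjusted p = 0.639) with 4 arrays and 0.34 with 3 arrays. PRDX1, a cytosolic peroxiredoxin that thioredoxin recycles, had signals of 4687 and 4715 on the siKLF7 arrays, against 4626 and 4380 on the scramble control arrays. Its difference was 0.06 (SE 0.10, adjusted p = 0.803) with 4 arrays and 0.10 with 3 arrays, so the groups did not overlap but lay close together.

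The glutathione peroxidases split into 2 that were level and 2 that tracked the control array used. GPX4, the enzyme that reduces lipid peroxides in membranes and restrains ferroptosis, had signals of 4056 and 4251 on the siKLF7 arrays, against 3666 and 4087 on the scramble control arrays. Its difference was 0.10 (SE 0.11, limma adjusted p = 0.724) with 4 arrays and 0.02 with 3 arrays. GPX1, the main cytosolic form, had signals of 3921 and 4143 on the siKLF7 arrays, against 3997 and 4341 on the scramble control arrays, with a difference of -0.05 (SE 0.11, adjusted p = 0.863) with 4 arrays and -0.11 with 3 arrays.

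GPX1 was the 1 gene of the 10 with more than 1 feature on the array, and the 2 features disagreed on scramble control replicate 1. The second feature had signals of 4296 and 3981 on the siKLF7 arrays, against 2325 and 4427 on the scramble control arrays. It gave a difference of 0.36 with 4 arrays and -0.10 with 3 arrays, so without scramble control replicate 1 both features gave a similar small value. With the mean of the 2 features the 4-array difference was 0.16, the opposite sign to that of the feature used.

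GPX2, the glutathione peroxidase of epithelia, was level on 3 arrays and low on scramble control replicate 1. Its signal was 1408 and 1571 on the siKLF7 arrays, against 194.2 and 1470 on scramble control replicates 1 and 2. Its difference was 1.43 (SE 0.94, limma adjusted p = 0.639) with 4 arrays and 0.02 with 3 arrays. GPX3, the secreted glutathione peroxidase of plasma, went the other way, with signals of 1182 and 1156 on the siKLF7 arrays, against 3681 and 893.3 on scramble control replicates 1 and 2. Its difference was -0.63 (SE 0.68, adjusted p = 0.715) with 4 arrays and 0.38 with 3 arrays, so the sign depended on that control array.

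**Figure D2:**
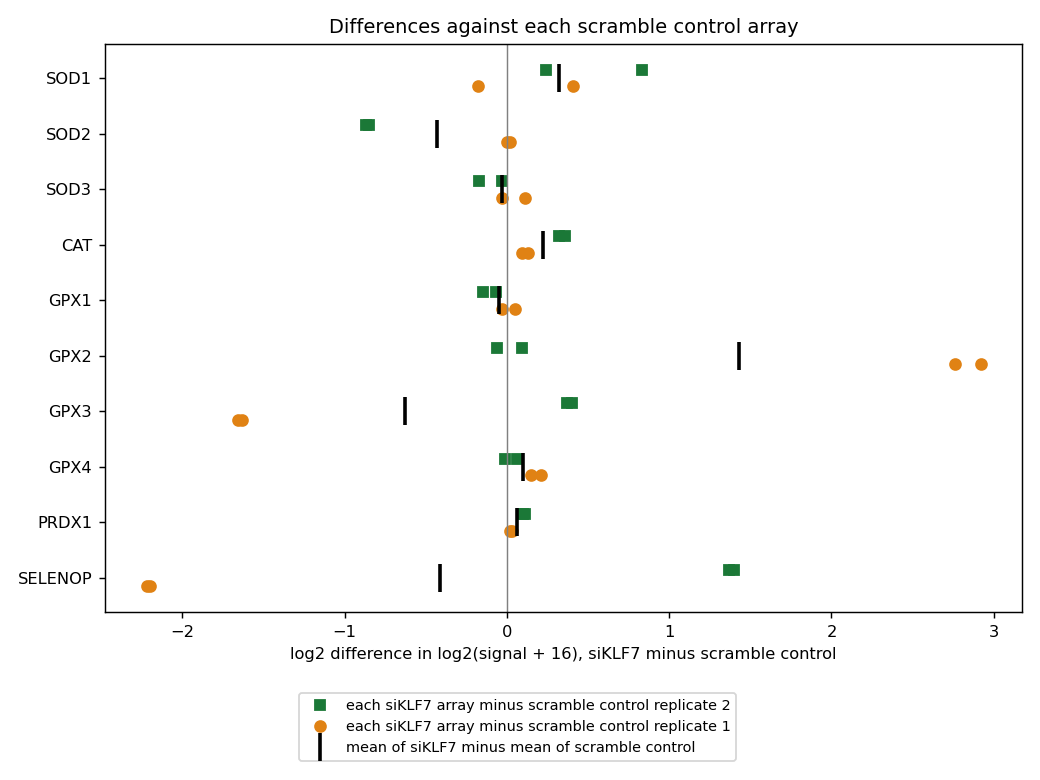
Difference of each siKLF7 array from scramble control replicate 2 (green squares) and from scramble control replicate 1 (orange circles), and of the group means (black bars), in log2 units. SOD2 stands near -0.86 against scramble control replicate 2 and near 0 against scramble control replicate 1, and SELENOP and GPX3 lie on opposite sides of 0 for the 2 controls.

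Of all genes measured 0, or 0%, passed limma at an adjusted p under 0.05 with 4 arrays, and 1069 had an unadjusted p under 0.05. Of the 8 listed genes other than SOD2 and SELENOP, 0 passed and 0 had an unadjusted p under 0.05, with adjusted p from 0.639 to 0.931. With 2 arrays against 2, an exact two-sided permutation test of a single gene cannot go below p = 0.333. The median difference of the 10 genes was 0.02 with 4 arrays and 0.06 with 3 arrays, beside -0.05 and -0.04 for all genes. With 3 arrays 0.885% of all genes rose and 0.69% fell, and with each array centred on its median the 3-array calls were 276 higher and 143 lower in place of 163 and 127.

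Without scramble control replicate 2, the 2 siKLF7 arrays were set against scramble control replicate 1 alone. In that fit 13.4% of all genes rose and 13.4% fell, and of the 8 genes tested 1 rose and 1 fell. GPX2 rose by 2.84 (SE 0.16, limma adjusted p = 1.6e-29) and GPX3 fell by 1.64 (SE 0.13, adjusted p = 3.5e-20). The other 6 did not pass, with differences from 0.01 for GPX1 to 0.18 for GPX4 (SE 0.09, adjusted p = 0.148). The lone control was assumed to vary like the siKLF7 pair, and it is the array that stood apart. The GPX1 value holds for the feature used. The second GPX1 feature was lower on that control, at 2325 against 4296 and 3981 on the siKLF7 arrays.

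Set against the mean of the other 3 arrays, scramble control replicate 1 was 6.38-fold higher for SELENOP and 3.41-fold higher for GPX3, and 7.12-fold lower for GPX2. The other 7 genes lay within 2-fold, with SOD2 at -0.29 (log2) and the rest from -0.17 for GPX4 to 0.07 for SOD1. Among all genes 2.11% were at least 2-fold higher on that array and 2.99% at least 2-fold lower. GPX3 and SELENOP, both secreted, were thus high where the epithelial GPX2 was low. SOD3, also secreted, was level there, at 170.4 against 166.9 to 189.4. On that array 6 of 11 corneal epithelial markers were at least 2-fold lower, and EPCAM, an epithelial adhesion molecule, had a signal of 95.1 there against 246.8 to 278.1 on the other arrays. CDH1, the epithelial cadherin, was not lower there, at 3939 against 3161 to 3280, and KRT5, a basal keratin, was at 11828 against 12764 to 13575.

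The 13 fibroblast and keratocyte markers summed to signals of 3810 and 3721 on the siKLF7 arrays, and to 11118 and 3293 on scramble control replicates 1 and 2. FN1, POSTN and THY1 were the 3 of the 13 at least 2-fold higher on scramble control replicate 1, with FN1, which encodes fibronectin, at 6544 there against 543.1 to 611.5 on the others, so FN1 made up most of the higher sum. LUM, which encodes lumican, was lowest on that array, at 25.1 against 34.6 to 63.5, as was COL5A1, a collagen gene, at 124.8 against 159.1 to 176.6. COL1A1 and COL1A2, collagen genes that define fibroblasts, had signals of 371.8 and 142.1 on that array, against 318.7 to 349.8 and 123.6 to 144.2 on the others. DCN and KERA, which encode decorin and keratocan of the stroma, were dim on all 4 arrays, at 21.2 to 36.9 and 34.8 to 48.3. Of the 11 corneal markers, KRT12, KRT3, KRT13, KRT15 and ALDH3A1 rose most against scramble control replicate 2, by 0.40 to 0.85. Of the 13 fibroblast markers, LUM and POSTN rose most against scramble control replicate 2, by 0.64 and 0.86. Both were dim on that array, at 34.6 and 25.4, below its 25th percentile signal of 64.8. LUM was also dim on the siKLF7 arrays, at 63.5 and 62.4, and POSTN differed between them, at 77.4 and 44.1. Vascular, leukocyte and melanocyte lists had 0 members 2-fold apart on scramble control replicate 1, and summed signals between 828 and 2707 over the arrays. The part of other cells in the SELENOP, GPX3 and GPX2 values was not tested, and in bulk RNA fewer cells of a type and less RNA per cell cannot be told apart.

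**Figure D3:**
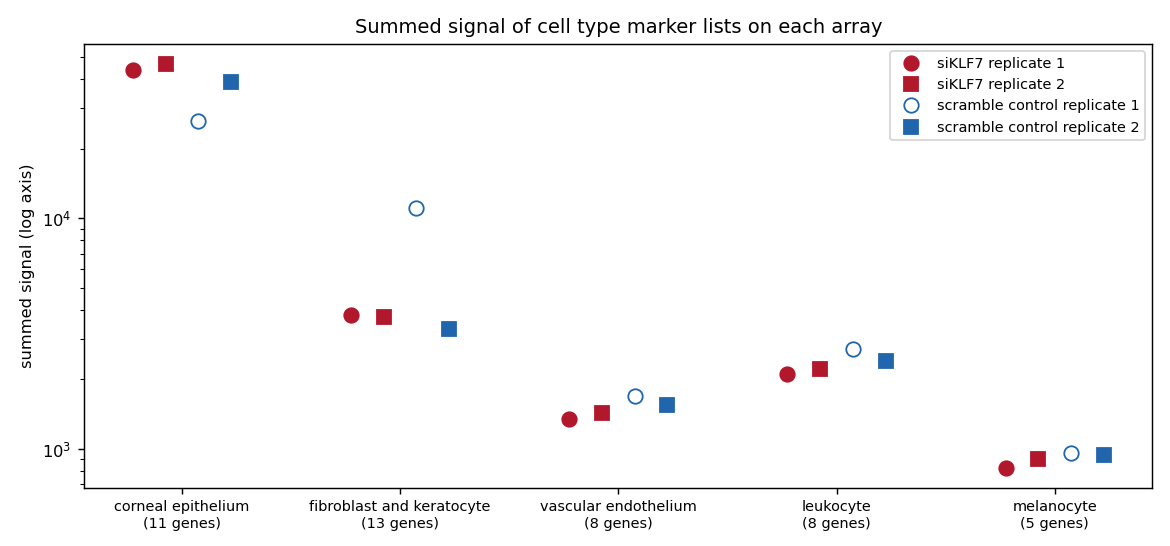
Summed signal of each list of cell type markers on the 4 arrays, on a log axis, with siKLF7 in red and scramble control in blue (open circle for replicate 1). Scramble control replicate 1 lies below the other arrays for corneal epithelial markers, at 26448, and above them for fibroblast markers, at 11118.

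The genes whose 4 levels, centred on their own mean, lay closest to those of SOD2 were PRDM1, CYP1B1 and NIBAN1, at Euclidean distances of 0.16, 0.18 and 0.19 log2 units over the 4 arrays. PRDM1, a transcriptional repressor, had signals of 251.8 and 262.0 on the siKLF7 arrays, against 220.8 and 451.6 on the scramble control arrays. CYP1B1, a cytochrome P450, had signals of 904.9 and 934.4 on the siKLF7 arrays, against 819.4 and 1464 on the scramble control arrays. All 3 were, like SOD2, high on scramble control replicate 2 alone, which follows from choosing them by closeness to SOD2. No gene lay as close to SELENOP, and the nearest were SCARNA4, a small Cajal body RNA, IL33, an epithelial alarm cytokine, and TTLL7, at distances of 0.76, 0.83 and 0.83. IL33 had signals of 123.9 and 118.4 on the siKLF7 arrays, against 1130 and 75.9 on the scramble control arrays. By the same choice, it was highest on scramble control replicate 1 and lowest on scramble control replicate 2.

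Of 98 other genes of the same pathways, 86 were measured, and with 3 arrays 1 rose and 4 fell, or 1.16% and 4.65%, beside the 0.885% and 0.69% of all genes. With 4 arrays 0 of the 86 passed in limma, and 10 had an unadjusted p under 0.05, beside 1069 of all 18417 genes. The median difference of the 86 was 0.01 with 3 arrays and 0.03 with 4 arrays. Both siKLF7 arrays lay above both controls for 23 of the 86, or 26.7%, beside 16.3% of all genes, and below for 21, or 24.4%, beside 28.9%. Without scramble control replicate 2 more of the 86 rose than fell, the opposite of the balance with 3 arrays, where equal shares of all genes rose and fell in that fit.

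SLC31A2, a copper transporter in a list of 6 genes of copper delivery to SOD1 and SOD3, fell with 3 arrays by 0.73 (log2, SE 0.13, limma adjusted p = 6.1e-05). Its signal was 1604 and 1429 on the siKLF7 arrays, against 1901 and 2524 on the scramble control arrays. Both siKLF7 values thus lay below both controls, as they did for 28.9% of all genes. The 4-array difference was -0.53 (SE 0.19, limma adjusted p = 0.639). Without scramble control replicate 2 the difference was smaller, at -0.33. The other 5 of the list did not pass, among them the copper pumps ATP7A, at 0.47 with 3 arrays and 0.33 with 4 arrays, and ATP7B, at -0.24 and -0.57. The list median was -0.06 with 3 arrays and -0.05 with 4 arrays.

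Genes of glutathione synthesis and recycling had 2 of 14 lower and 0 higher with 3 arrays. CHAC1, which breaks down glutathione, fell by 0.75 (SE 0.14, limma adjusted p = 0.00018), with signals of 1214 and 1055 on the siKLF7 arrays, against 726.1 and 1915 on the scramble control arrays. Its siKLF7 values lay between the controls, and the 4-array difference was -0.06 (SE 0.47). SLC3A2, a subunit of the cystine transporter that feeds glutathione synthesis, fell by 0.37 (SE 0.09, adjusted p = 0.0084), with signals of 4804 and 4308 on the siKLF7 arrays, against 5585 and 5866 on the scramble control arrays. Its groups did not overlap, and the 4-array difference was -0.33 (SE 0.11, adjusted p = 0.639). GCLC and GCLM, the subunits of the enzyme that starts glutathione synthesis, stood at -0.31 and -0.24 with 3 arrays and at 0.14 and -0.34 with 4 arrays, and did not pass in these fits. Without scramble control replicate 2, where sizes alone are given, CHAC1 stood at 0.63, GCLC at 0.60, GCLM at -0.44 and SLC3A2 at -0.29. The list median was 0.01 with 3 arrays and 0.13 with 4 arrays.

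The thioredoxin system had 1 of 15 genes higher and 1 lower with 3 arrays. GLRX, a glutaredoxin, rose by 0.57 (SE 0.16, limma adjusted p = 0.038), with signals of 642.0 and 649.0 on the siKLF7 arrays, against 742.4 and 428.1 on the scramble control arrays. TXNIP, which binds and inhibits thioredoxin, fell by 0.33 (SE 0.09, adjusted p = 0.028), with signals of 4843 and 4373 on the siKLF7 arrays, against 1879 and 5776 on the scramble control arrays. For both, the siKLF7 values lay between the 2 controls, and with 4 arrays GLRX stood at 0.19 and TXNIP at 0.48. Without scramble control replicate 2, where sizes alone are given, TXNIP stood at 1.29 and GLRX at -0.20. The TXNIP call was lost without the intensity trend (adjusted p = 0.436), as were those of SLC3A2 (adjusted p = 0.368) and GLRX (adjusted p = 0.071), and the GLRX call also with the mean of its features (adjusted p = 0.052). TXNRD1 and TXNRD2, selenoenzymes that reduce thioredoxin, stood at -0.12 and 0.16 with 3 arrays and at -0.27 and 0.28 with 4 arrays, and did not pass in these fits. Without scramble control replicate 2 they stood at -0.41 and 0.39, again as sizes alone.

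The remaining lists had 0 genes that passed with 3 arrays or with 4 arrays at the settings used throughout, which is 0 of 8 other peroxiredoxins and glutathione peroxidases, 0 of 23 selenoproteins and selenocysteine factors, 0 of 16 sources of superoxide and hydrogen peroxide and 0 of 4 heme peroxidases. Their 3-array medians were 0.09, 0.03, -0.08 and -0.18, and their 4-array medians 0.23, 0.03, -0.13 and -0.15. PRDX3, the mitochondrial peroxiredoxin, had signals of 2437 and 2293 on the siKLF7 arrays, against 1845 and 1945 on the scramble control arrays, a difference of 0.28 (SE 0.12, limma adjusted p = 0.313) with 3 arrays and 0.32 (SE 0.12) with 4 arrays. GPX7, a peroxidase of the endoplasmic reticulum, had signals of 1301 and 1231 on the siKLF7 arrays, against 517.1 and 1145 on the scramble control arrays, so like GPX2 it was low on scramble control replicate 1, and its difference was 0.14 with 3 arrays and 0.70 with 4 arrays. Among selenium genes, DIO1, a deiodinase, stood at -0.54 with 3 arrays and -0.45 with 4 arrays. SEPSECS, which makes selenocysteine on its tRNA, stood at 0.44 and 0.43, and SELENOM at -0.35 and -0.72. The groups did not overlap for these 3 genes, which were named for their small p. In that list of 23, 21.7% lay above both controls and 26.1% below, beside 16.3% and 28.9% of all genes. With 3 arrays DIO1 passed with a robust trend (adjusted p = 0.047), and PXDN, a heme peroxidase at 0.41 with 3 arrays and 0.13 with 4 arrays, passed with each array centred on its median (adjusted p = 0.037). RAC2, a GTPase of the phagocyte NADPH oxidase, had signals of 890.3 and 887.4 on the siKLF7 arrays, against 3843 and 696.3 on the scramble control arrays, the pattern of GPX3 and SELENOP, with a difference of 0.35 with 3 arrays and -0.87 with 4 arrays.

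**Figure D4:**
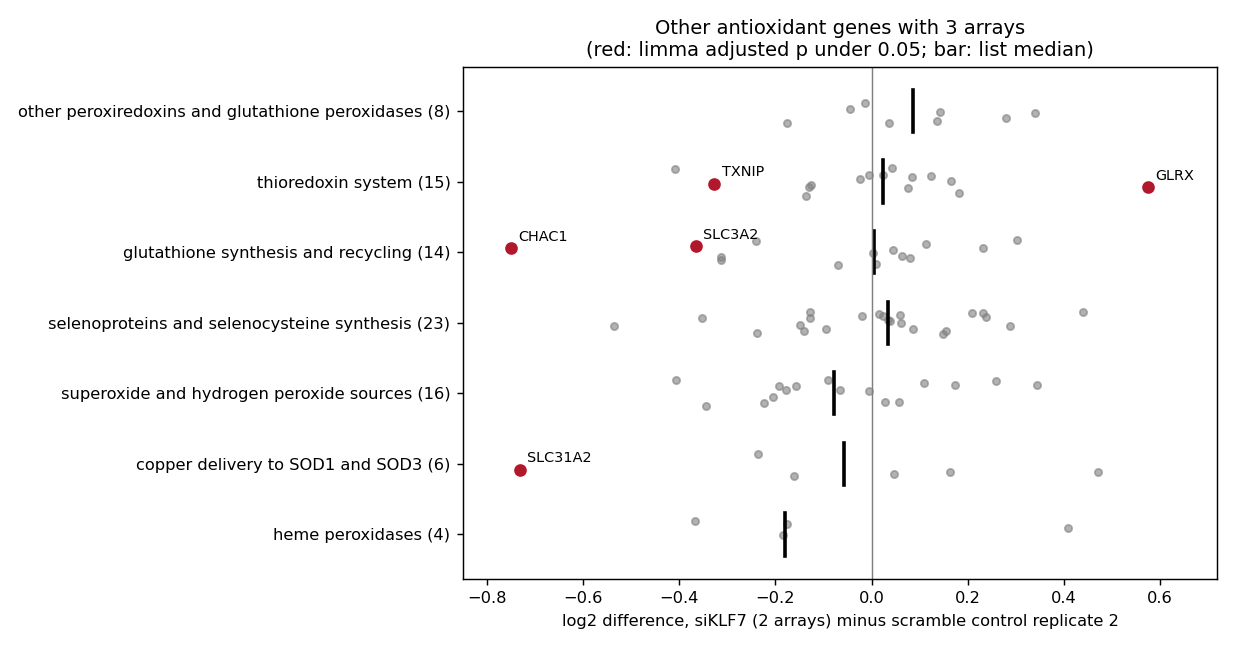
Difference of each of the 86 other pathway genes with 3 arrays, siKLF7 minus scramble control replicate 2, in log2 units, by list with the number measured. Red points passed limma at an adjusted p under 0.05 and bars mark list medians: GLRX is the 1 gene that rose, and TXNIP, CHAC1, SLC3A2 and SLC31A2 are the 4 that fell.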

How the data were processed

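RNA of 2 siKLF7 and 2 scramble control samples was measured on whole-transcript arrays, and the labels gave groups and replicate numbers. The authors deposited 1 table of linear intensity values for 33297 features, and the submitters' processing notes list PLIER 2.0 and Affymetrix Expression Console 1.1.1. Any normalization between arrays is not stated there. The 19460 features with 1 gene symbol in the platform annotation were used, taking for each gene the feature with the highest mean, which left 18417 genes. Values were analysed as log2(signal + 16) with no filter on dim genes, so all 10 listed genes were kept.

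The comparison was fitted in limma 3.58.1 (R 4.3.3) with an intensity trend and Benjamini-Hochberg adjustment over all genes at 0.05, with 4 arrays (2 residual and 2.63 prior degrees of freedom) and with 3 arrays, without scramble control replicate 1 (1 residual and 74.2 prior degrees of freedom). With 3 arrays the spread comes from the siKLF7 pair and the prior. The number of arrays limits the precision.

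The listed genes, the pathway lists and the marker lists were chosen with earlier results of these data known. Named pathway genes are those that passed with 3 arrays and up to 3 per list by smallest p in each fit. SOD2 and SELENOP carry no p-value. Same-numbered arrays did not deviate together across genes (r = -0.041). With scramble control replicate 1 apart, that value cannot decide whether the numbers mark pairs. Settings varied were the scaling (quantile, median), a filter on dim genes, averaged features, the pseudocount (1 or 32), the trend, the replicate block and each array in turn. Plots used matplotlib 3.10.9.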

Additional observations from a re-analysis of the deposited data

How the results depend on the processing

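With 4 arrays the number of genes that passed in limma was 0 under every scaling, filter, feature rule, pseudocount and prior tried (358 to 1086 at an unadjusted p under 0.05) and 0 with the replicate block (680 at an unadjusted p under 0.05). The labels do not say whether replicate numbers mark pairs. As 0 genes passed without the block, it could take no call away, and it added none. Leaving out 1 array gave 0 to 4935 genes, and 0 to 31 of the 86 pathway genes: 290 and 5 without scramble control replicate 1, and 4935 and 31 (21 higher, 10 lower) without scramble control replicate 2. KLF7 ranged from -1.83 to -1.16 over these fits. With 3 arrays, 484 genes passed with quantile normalization and 172 without the trend, against 290, and 2 pathway genes without the trend, against 5; the cause was not tested.

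Against scramble control replicate 2, SOD2 stayed between -0.87 and -0.83 and SELENOP between 1.19 and 1.65 under all settings that kept them. SELENOP and SOD3 were left out with the dimmest 50% of genes, and SELENOP with 3 arrays also with the dimmest 25%. With 4 arrays SOD3 turned to 0.01 with quantile normalization, as did GPX5, and GPX1 to 0.16 with the mean of its features. With 1 array left out, 4-array differences that changed sign (none called with 4 arrays, some called in these fits) ranged from -0.10 to 0.04 for SOD3, -0.11 to 0.01 for GPX1, -1.64 to 0.38 for GPX3, -0.19 to 0.10 for GPX5, -0.33 to 1.29 for TXNIP, -0.20 to 0.57 for GLRX, -0.41 to 0.24 for SESN2, -0.75 to 0.63 for CHAC1, -0.31 to 0.60 for GCLC, -2.09 to 0.35 for RAC2 and -0.14 to 0.41 for PXDN. SOD2, at -0.86 to 0.01, and SELENOP, at -2.21 to 1.39, also changed sign over these fits. Arrays gave no detection call, so dim values such as SELENOP on scramble control replicate 2 cannot be set against background.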
